A study of Mus musculus with 8 samples.

Results

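The receptors that share the common gamma chain, together with the gp130 chain of the IL-6 family and the kinases and transcription factors beneath them, were examined in sorted thymocytes of 2 inbred mouse strains. The set comprised 10 genes of the 53465 in each deposited count table: the receptor chains Il7r, Il2ra, Il2rb, Il4ra, Il2rg and Il6st, the Janus kinases Jak1 and Jak3, and the signal transducers Stat5a and Stat5b. They were taken by name, as the chains, JAKs and STAT5 genes of IL-2, IL-4, IL-6 and IL-7 signals, after Ensembl identifiers were matched to GENCODE M21 symbols. The name common gamma chain family covers Il2rg and its partners; Il6st belongs to a separate receptor family.

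All libraries came from live CD4+ CD8+ (double-positive) thymocytes, sorted by flow cytometry from the thymus of C57BL/6J mice or of NOD/ShiLtJ mice, the inbred strain that develops autoimmune diabetes spontaneously. No transgene, deletion or treatment is named in the labels for either strain, and the sources used here do not state age, sex or the number of mice per sample. Each strain had 4 libraries, which carry 2 B numbers and 2 T numbers that the labels do not explain. Libraries of 1 strain and B number were summed, giving sample 1 and sample 2 of each strain, so n = 2 per strain throughout; as nothing states that these are separate animals, p-values measure only the spread between samples, which may be technical.

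Cytokines of this family are bound by a private chain (IL-7 by Il7r, IL-4 by Il4ra) that pairs with the shared chain Il2rg. IL-2 is bound by Il2ra and Il2rb together with Il2rg. Jak1 docks on Il7r, Il4ra or Il2rb and Jak3 on the shared chain. The activated kinases phosphorylate STAT proteins, STAT5 among them, which dimerise and enter the nucleus. In the thymus, IL-7 signals sustain the CD4- CD8- precursors, Il7r is low in double-positive cells and returns after positive selection, and Il2ra marks part of the precursor stage and regulatory T cells.

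The libraries held between 8526640 and 15701948 reads in genes for C57BL/6J and between 23532823 and 30370599 for NOD/ShiLtJ, so values of low genes were less precise in C57BL/6J. Levels are given in CPM, the reads of a gene relative to the reads in all genes of its library, with library sizes scaled by the trimmed mean of M-values (TMM). Defining genes of the sorted cells were abundant in every library: the recombinase gene Rag1 averaged 8998 ± 796 CPM for C57BL/6J against 5902 ± 950 CPM for NOD/ShiLtJ (SD, n = 2), Cd4 averaged 1251 ± 159 against 1293 ± 66.4 CPM, and 0 of 12 double-positive markers passed the edgeR test between strains (4 at an unadjusted p below 0.05, where 13.1% of all genes tested were). Of these 12, 4 had NOD/ShiLtJ libraries wholly below the C57BL/6J ones (8.84% of all genes) and 1 wholly above (8.20%), and the summed level was 20201 to 23375 CPM over C57BL/6J libraries and 15753 to 19254 CPM over NOD/ShiLtJ libraries. Markers of other cells were present, and a few were higher in NOD/ShiLtJ. Of 13 myeloid genes 12 were tested: Csf1r passed (0.643 ± 0.278 against 3.56 ± 0.366 CPM; edgeR adjusted p = 0.0233), 5 had an unadjusted p below 0.05, 4 had NOD/ShiLtJ libraries wholly above, and the summed level was 24.9 to 35.2 CPM in C57BL/6J and 47.4 to 73.1 CPM in NOD/ShiLtJ. Tcrg-C4 of the gamma-delta list (0.455 ± 0.331 against 3.00 ± 0.989 CPM, edgeR adjusted p = 0.0398) and Col1a2 of the stromal list (0.0221 ± 0.0312 against 1.27 ± 0.252 CPM, edgeR adjusted p = 0.00959) also rose. Each was the only call among the 6 genes tested of its list, against 3.68% of all genes. The C57BL/6J mean of Col1a2 was below the 0.0625 CPM that a count of 0 allows in that strain. Such a gene can enter the test through the NOD/ShiLtJ samples alone. The sums of these lists overlapped, at 60.1 to 88.1 and 50.1 to 127 CPM for 9 gamma-delta genes and at 165 to 183 and 161 to 182 CPM for 15 stromal genes. So did those of 14 innate lymphocyte genes (29.8 to 42.1 and 38.1 to 54.5 CPM), 9 B cell genes (338 to 412 and 248 to 378 CPM) and 8 erythroid genes (1.39 to 6.64 and 1.54 to 13.6 CPM), where 0 passed in edgeR. The part of such cells in the values below was not tested. Il2rg is X-linked, and Xist was at 0.0405 to 0.562 CPM and the Y-linked Ddx3y at 42.6 to 111 CPM over the 8 libraries. Each library of both strains thus held RNA of male cells. The sum of Xist and 4 Y-linked genes was 254 to 336 CPM in C57BL/6J and 141 to 203 CPM in NOD/ShiLtJ. Xist gave at most 0.562 CPM of this sum, so it is in effect a sum of the Y-linked genes. Kdm5d fell in NOD/ShiLtJ (87.0 ± 7.35 to 49.3 ± 1.31 CPM, edgeR adjusted p = 0.0283). Of the 5 genes 3 had NOD/ShiLtJ libraries wholly lower, and all 5 estimates were negative. In RNA of a sorted population, fewer cells that express a gene and less RNA per cell cannot be told apart.

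Across the 10 genes no strain difference passed the test. All 10 passed the filter on low counts, and 0 of them had an edgeR adjusted p below 0.05 over 17291 genes, where 3.68% of all genes did (1.91% higher and 1.78% lower in NOD/ShiLtJ). Before adjustment 3 of 10 had p below 0.05 against 13.1% of all genes: Il7r and Il6st higher and Il2ra lower in NOD/ShiLtJ. In 5 of 10 genes the 4 libraries of one strain lay wholly outside those of the other, against 17.0% of all genes. These were Il7r, Il2rb and Il6st, higher in NOD/ShiLtJ (8.20% of all genes), and Il2ra and Il2rg, lower (8.84%). The median log2 fold change was -0.05 over the 10 genes and 0.02 over all genes tested.

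Whether any of the 10 was called differed between settings. DESeq2 called 1 (4.24% of the genes it tested), as did edgeR with no filter on low counts (3.38%) and edgeR without NOD/ShiLtJ sample 2 (8.08%), and in each of these the gene was Il7r. With the 8 libraries entered as separate samples edgeR called 4 (10.1%): Il7r, Il2ra, Il2rg and Il6st. In limma-voom, with the libraries of 1 sample treated as correlated, Il6st alone was called (4.94%). Under the other settings tried 0 of the 10 were called: edgeR with RLE size factors (3.76% of all genes), with total-count scaling (3.65%), with protein-coding genes only (4.23%), and leaving out sample 1 (1.33%) or sample 2 (1.87%) of C57BL/6J or sample 1 of NOD/ShiLtJ (5.06%). Entering the libraries separately may count repeated libraries of 1 sample as independent, and their correlation within samples was 0.443 in limma's estimate.

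**Figure D1:**
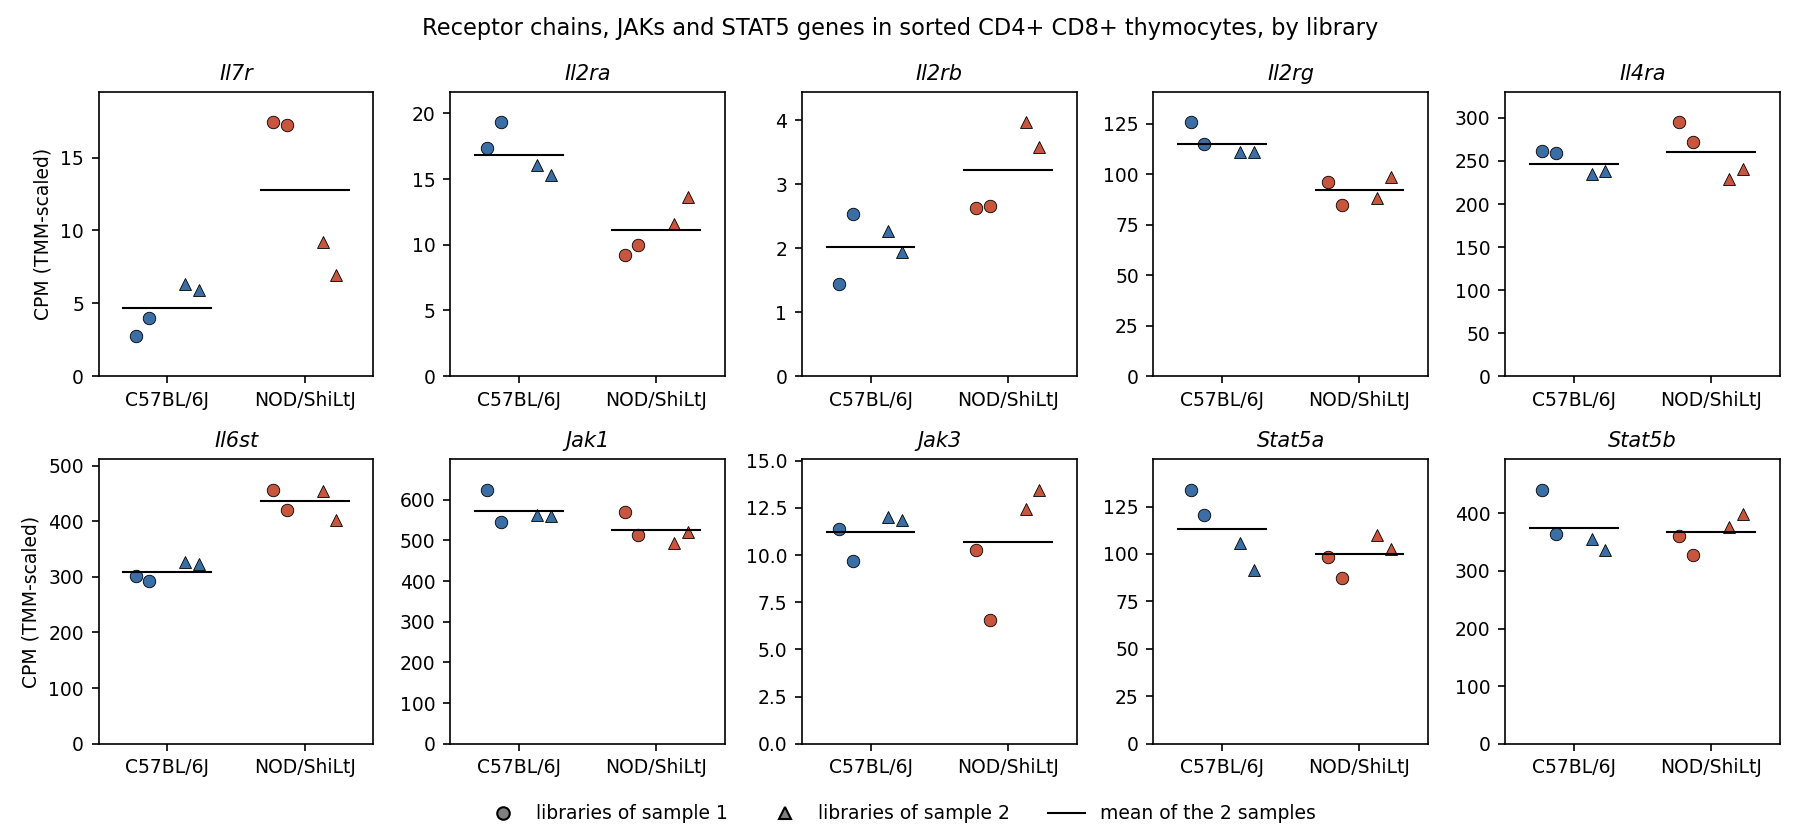
TMM-scaled CPM (linear axis from 0) of the 10 genes in each of the 8 libraries; circles are libraries of sample 1, triangles those of sample 2, and lines the mean of the 2 samples of a strain. For Il7r, Il2rb and Il6st all NOD/ShiLtJ points lie above all C57BL/6J points, for Il2ra and Il2rg all lie below, and for the other 5 genes the strains overlap.

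Il7r, the IL-7 receptor alpha chain, had the highest fold difference of the 10 genes and also the widest spread between samples of 1 strain. Its gene lies on the minus strand at chr15:9505788-9530176 (GRCm38). In C57BL/6J the libraries gave 2.72 and 3.97 CPM for sample 1 and 6.30 and 5.93 CPM for sample 2. In NOD/ShiLtJ they gave 17.4 and 17.2 CPM for sample 1 and 9.19 and 6.91 CPM for sample 2. Every NOD/ShiLtJ library was above every C57BL/6J library, but the samples lay 1.91-fold apart within C57BL/6J and 2.14-fold apart within NOD/ShiLtJ, against at most 1.52-fold for any of the other 9 genes. The means were 4.69 ± 2.08 and 12.8 ± 6.57 CPM (SD, n = 2), resting on 225 and 1292 reads. The log2 fold change was 1.44 ± 0.45 (SE; 95% confidence interval 0.41 to 2.48) and did not pass the threshold (edgeR adjusted p = 0.168).

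The size of the Il7r difference depended on which samples entered. It was 0.79 (log2) without NOD/ShiLtJ sample 1, 1.04 without C57BL/6J sample 1, 1.88 without NOD/ShiLtJ sample 2 and 1.97 without C57BL/6J sample 2. The edgeR adjusted p over these fits ranged from 0.000206 to 0.738, and only the fit without NOD/ShiLtJ sample 2 passed. DESeq2 gave the same log2 fold change, 1.44, with an adjusted p of 0.0199. The direction was thus the same in each fit, and the sample whose libraries stood highest was sample 1 of NOD/ShiLtJ.

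Il7r is also a marker of mature single-positive thymocytes, and genes of that list did not move as one. Of its 14 other members, 0 passed the edgeR test (3.68% of all genes) and 3 had an unadjusted p below 0.05 (13.1%). NOD/ShiLtJ libraries lay wholly above the C57BL/6J ones in 2 (8.20% of all genes) and wholly below in 2 (8.84%). Of the 14 log2 fold changes 8 were positive, with a median of 0.18. The summed level was 4621 to 5637 CPM for C57BL/6J against 3637 to 4348 CPM for NOD/ShiLtJ. Most of this sum came from Tcf7, at 3700 to 4546 and 2789 to 3518 CPM over the libraries. Cd69, an early activation marker induced at positive selection and named here after its values were seen, gave 38.6, 40.4, 40.7 and 47.9 CPM for C57BL/6J against 88.4, 114, 58.0 and 61.7 CPM for NOD/ShiLtJ (sample 1, then sample 2). Like Il7r, it was highest in sample 1 of NOD/ShiLtJ, and its difference was 0.97 ± 0.25 (log2, SE; edgeR adjusted p = 0.0801). Zbtb7b, which directs CD4 lineage choice, was at 1.08 ± 0.592 and 3.31 ± 0.295 CPM (SD, n = 2; adjusted p in edgeR 0.137), C57BL/6J first. Ccr7 and S1pr1, genes of later maturation and exit, were at 4.49 ± 0.840 and 6.74 ± 0.103 CPM and at 1.76 ± 0.491 and 1.78 ± 0.732 CPM, with edgeR adjusted p of 0.549 and 0.996. Members of the list that stood lower in NOD/ShiLtJ included Runx3, Tcf7, Ifngr1 and Il21r, with log2 fold changes of -0.40, -0.33, -0.21 and -0.17. Tcf7, a factor of T cell development given below, was among the genes with NOD/ShiLtJ libraries wholly below. These genes and the cell markers named for other chains were picked after their values were seen. The part of mature cells in the Il7r values was not tested.

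The sequence before the RefSeq start of Il7r is shown for a STAT motif, TTCNNNGAA, where N is any base. Of the 9 genes with a RefSeq promoter window, Il7r was the only one whose window held it. The motif reads the same on both strands. RefSeq windows (GRCm38.p6) of 300 bases, 250 before and 50 after an annotated start, were found for 9 of the 10 genes, 11 windows in all. Il2rb had no window and was not searched. The 1 match, in capitals, lies at chr15:9530010-9530018, and the bases are given in the direction of the gene for chr15:9529877-9530126. RefSeq places the start at base 9529876, whereas the coding transcripts of GENCODE start at 9529835 and 9529828 and a non-coding one at 9530176, which sets the end of the gene given above; the stretch therefore lies before the coding starts but inside the extent of the gene.
Il7r: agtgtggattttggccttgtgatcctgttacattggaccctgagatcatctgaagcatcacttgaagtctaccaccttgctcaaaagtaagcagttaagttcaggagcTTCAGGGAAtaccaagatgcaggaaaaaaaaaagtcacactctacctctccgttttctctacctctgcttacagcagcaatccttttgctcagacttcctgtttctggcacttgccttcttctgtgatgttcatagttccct
Among all 32851 windows of this length, 8.30% held at least 1 match, so a match in 1 of 11 windows is close to that share. A match is a description of the letters and is no evidence of binding.

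Il2ra, the alpha chain that gives the IL-2 receptor its high affinity (CD25), stood the other way. The gene lies on the plus strand at chr2:11642807-11693193. Its C57BL/6J libraries gave 17.4, 19.3, 16.1 and 15.3 CPM and its NOD/ShiLtJ libraries 9.23, 9.96, 11.6 and 13.6 CPM (sample 1, then sample 2). All NOD/ShiLtJ libraries were below all C57BL/6J libraries, with a gap between the nearest of them smaller than the range within either strain. The means were 16.9 ± 1.56 and 11.1 ± 2.05 CPM (SD, n = 2), and the log2 fold change was -0.60 ± 0.26 (SE; interval -1.18 to -0.02; edgeR adjusted p = 0.354).

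Other markers of the 2 cell types that Il2ra marks were examined beside it. Of the 11 other regulatory T cell markers 0 passed the edgeR test (3.68% of all genes) and 4 had an unadjusted p below 0.05 (13.1%). NOD/ShiLtJ libraries lay wholly above in 5 (8.20% of all genes) and wholly below in 1 (8.84%), 9 of 11 log2 fold changes were positive with a median of 0.56, and the sums overlapped, with ranges of 177 to 223 and 182 to 249 CPM. Foxp3, the regulatory T cell factor, was at 0.488 ± 0.0595 CPM for C57BL/6J against 1.31 ± 0.0164 CPM for NOD/ShiLtJ (SD, n = 2), on 23 and 137 reads, with an edgeR adjusted p of 0.216. Of 12 other markers of CD4- CD8- precursors 9 were tested, and 1 passed in edgeR (3.68% of all genes). The median log2 fold change was -0.15, with 4 of 9 positive. Before adjustment p was below 0.05 in 2 that were higher and 1 that was lower in NOD/ShiLtJ (13.1% of all genes in either direction). NOD/ShiLtJ libraries lay wholly above in 2 (8.20%) and wholly below in 1 (8.84%). The gene that passed was Cd44, which rose in NOD/ShiLtJ (11.9 ± 0.920 to 24.1 ± 3.21 CPM, edgeR adjusted p = 0.0474). Kit, the stem cell factor receptor of early precursors, was at 4.79 ± 0.351 and 3.64 ± 0.519 CPM (adjusted p in edgeR 0.767). The sums of the precursor markers overlapped, at 286 to 401 and 204 to 367 CPM. The part of either cell type in the Il2ra values was not tested.

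Il2rb, the chain that IL-2 and IL-15 receptors share, had the lowest level per kb of the 10 genes. It lies on the minus strand at chr15:78479256-78495271. Libraries gave 1.44, 2.54, 2.27 and 1.94 CPM for C57BL/6J against 2.63, 2.66, 3.97 and 3.59 CPM for NOD/ShiLtJ. The highest C57BL/6J library and the lowest NOD/ShiLtJ library nearly met, at 2.54 and 2.63 CPM. The C57BL/6J mean of 2.02 ± 0.176 CPM and the NOD/ShiLtJ mean of 3.23 ± 0.799 CPM (SD, n = 2) rested on 96 and 342 reads. The log2 fold change was 0.67 ± 0.40 (SE), with an interval of -0.24 to 1.59 that reaches from a decrease to a 3.00-fold increase (edgeR adjusted p = 0.589). Il2rb is also an innate lymphocyte gene. Of 14 other innate markers 8 were tested and 0 passed in edgeR (3.68% of all genes). Before adjustment 2 had p below 0.05 (13.1%), and 2 had NOD/ShiLtJ libraries wholly above (8.20%). All 8 log2 fold changes were positive, as were 9043 of the 17291 over all genes. Klrb1c, which encodes the NK1.1 antigen, was at 0.208 ± 0.107 and 1.09 ± 0.0646 CPM. Genes this low can pass the filter on low counts through the samples of 1 strain alone, so the filter can set part of their direction. Its part in these values was not tested. The part of innate lymphocytes in the Il2rb values was not tested.

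Il2rg, the shared chain, was slightly lower in NOD/ShiLtJ with closely spaced samples. The gene lies on the minus strand at chrX:101264378-101268255. Its libraries gave 126, 115, 111 and 111 CPM for C57BL/6J against 95.9, 84.8, 88.4 and 98.5 CPM for NOD/ShiLtJ. The lowest C57BL/6J library was above the highest NOD/ShiLtJ library. The means were 115 ± 5.97 and 92.1 ± 1.49 CPM (SD, n = 2), and the log2 fold change of -0.32 ± 0.16 (SE; interval -0.67 to 0.04) did not pass the threshold (edgeR adjusted p = 0.459). An annotated same-strand gene, Gm20489, shares 728 exon bases with Il2rg, and 28.3% of the 38-base windows of Il2rg transcripts occur in it; reads there can be left uncounted, and Gm20489 itself had 16 reads over the 8 libraries. The counts of Il2rg are uncertain to that extent in both strains. Over all genes, reads set aside as fitting more than 1 gene were 0.69 to 1.16% of a C57BL/6J library. They were 1.15 to 2.38% of a NOD/ShiLtJ library, and their part in the Il2rg difference was not tested.

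Il4ra, the private chain of the IL-4 receptor, did not separate the strains. The gene lies on the plus strand at chr7:125552120-125579474. Its libraries ranged from 235 to 262 CPM in C57BL/6J and from 229 to 295 CPM in NOD/ShiLtJ, with means of 246 ± 14.9 and 260.0 ± 35.9 CPM (SD, n = 2). The log2 fold change was 0.08 ± 0.17 (SE), with an interval of -0.31 to 0.46 (edgeR adjusted p = 0.92). In NOD/ShiLtJ both libraries of sample 1 were above all C57BL/6J libraries, while sample 2 was within or below their range. The antisense gene Gm44876 overlaps 571 of its exon bases and had 17 reads in all 8 libraries.

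Il6st encodes gp130, which signals for IL-6, LIF, oncostatin M and other cytokines and does not use the common gamma chain. It lies on the plus strand at chr13:112464070-112510086. The C57BL/6J libraries gave 301, 293, 327 and 323 CPM and the NOD/ShiLtJ libraries 456, 419, 454 and 402 CPM. No library of one strain came within the range of the other, and the samples of 1 strain were at most 1.11-fold apart. The means of 309 ± 22.7 and 435 ± 7.76 CPM (SD, n = 2) rested on 14666 and 45413 reads. The difference was 1.41-fold, a log2 fold change of 0.49 ± 0.16 (SE; interval 0.13 to 0.86), and it did not pass the threshold (edgeR adjusted p = 0.18). Unlike Il7r, it changed little when a sample was left out, from 0.42 to 0.56 (log2), although none of these fits passed the threshold. Its ligand-binding partner Il6ra, needed for the classical IL-6 response, was low in both strains, at 1.14 ± 0.170 and 1.63 ± 0.0583 CPM, with an edgeR adjusted p of 0.749.

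**Figure D2:**
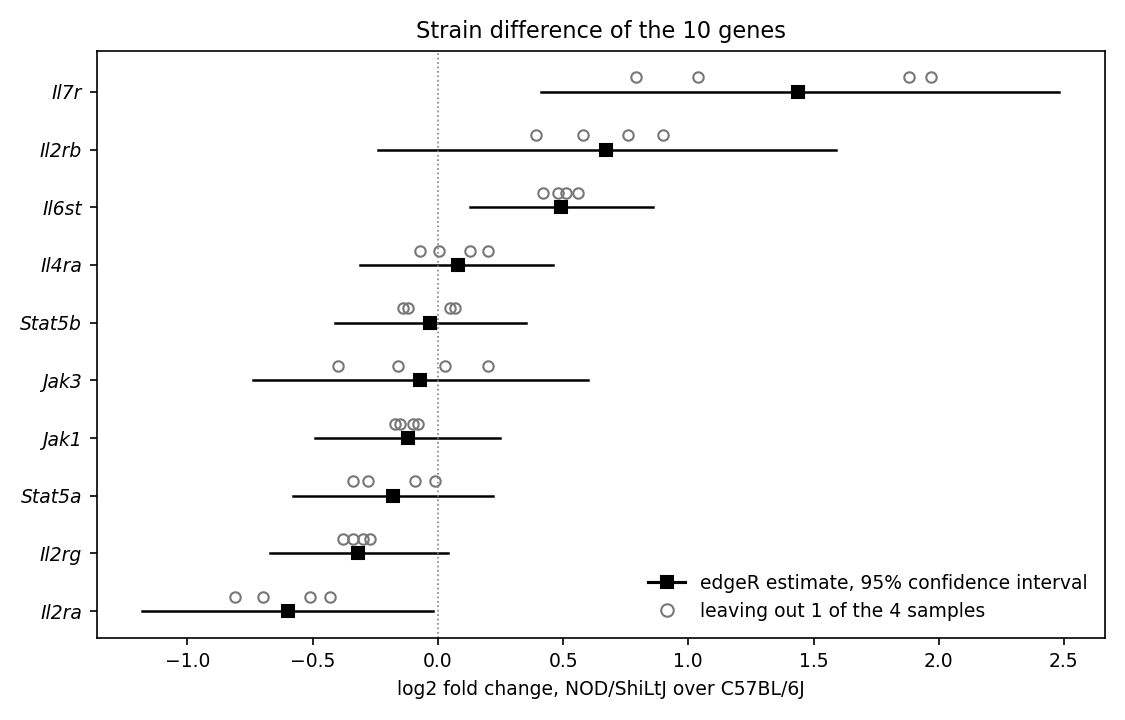
Log2 fold change of NOD/ShiLtJ over C57BL/6J for the 10 genes (squares), with 95% confidence intervals from edgeR (lines) and the estimates when 1 of the 4 samples was left out (open circles). Intervals of Il7r, Il6st and Il2ra leave out 0 before adjustment, and the Il7r estimates range most, from 0.79 to 1.97.

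The 2 kinases and the 2 STAT5 genes overlapped between strains. Jak1 (chr4:101152367-101265282, minus strand) was at 546 to 624 CPM for C57BL/6J against 493 to 569 CPM for NOD/ShiLtJ, means 571 ± 14.5 and 526 ± 27.0 CPM. Its log2 fold change was -0.12 ± 0.16 (SE; interval -0.49 to 0.25; edgeR adjusted p = 0.862). Jak3 (chr8:71676296-71690575, plus strand) ranged from 9.66 to 12 CPM over the C57BL/6J libraries. The NOD/ShiLtJ libraries of sample 1 gave 10.2 and 6.57 CPM and those of sample 2 gave 12.4 and 13.4 CPM, so they lay on both sides of C57BL/6J. With a log2 fold change of -0.07 ± 0.30 (SE; interval -0.74 to 0.60), differences up to 1.52-fold upward or down to 0.601 of the C57BL/6J level were within the error (edgeR adjusted p = 0.962). Jak3 shares 404 exon bases with Insl3 on the same strand, which had 17 reads in all.

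Stat5a and Stat5b are neighbours on chromosome 11 and encode 2 closely related factors with overlapping functions. Stat5a (chr11:100859351-100885169, plus strand) ranged from 91.4 to 134 CPM in C57BL/6J and from 87.5 to 110.0 CPM in NOD/ShiLtJ, and Stat5b (chr11:100780731-100850724, minus strand) from 336 to 441 and from 328 to 399 CPM. Their log2 fold changes were -0.18 ± 0.18 (SE; interval -0.58 to 0.22) and -0.03 ± 0.17 (interval -0.41 to 0.35), with edgeR adjusted p of 0.802 and 0.969. The spread between the C57BL/6J samples, 1.25-fold for Stat5a and 1.15-fold for Stat5b, exceeded either difference between strains. A difference of the size of the Il7r estimate was outside both intervals.

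Reads cannot always be assigned between the 2 STAT5 genes, and a stretch common to both is shown. Of the 38-base windows of their transcripts, 745 are common to both, 10.7% of all Stat5a windows being found in another gene and 13.5% of Stat5b windows. The longest identical run is 324 bases, coding bases 571 to 894 of each, and its first 90 bases (to base 660) are the same letters in both, printed without capitals because no base differs.
Stat5a: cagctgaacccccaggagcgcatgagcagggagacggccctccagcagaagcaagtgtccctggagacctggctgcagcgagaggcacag
Stat5b: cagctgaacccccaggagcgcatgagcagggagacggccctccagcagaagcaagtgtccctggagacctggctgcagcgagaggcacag
When the counts of the 2 genes were summed, which was added after their values were seen, the log2 fold change was -0.06 ± 0.17 (SE; edgeR adjusted p = 0.935). Stat5a also shares 72 exon bases with Stat3 on the opposite strand.

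Levels of different genes were compared as CPM per kb of merged exon length. In C57BL/6J the order was Jak1 (79.0 ± 2.00), Stat5b (67.7 ± 6.89), Il2rg (48.2 ± 2.5), Il4ra (41.1 ± 2.48), Il6st (27.9 ± 2.04), Stat5a (15.9 ± 2.53), Il2ra (2.95 ± 0.274), Jak3 (2.09 ± 0.197), Il7r (1.01 ± 0.445) and Il2rb (0.472 ± 0.0410; SD, n = 2). The genes fell into an abundant and a scarce set, with 6 genes at 15.9 or more and 4 at 2.95 or less. The samples of each gene lay apart from those of the next gene in this order. In NOD/ShiLtJ the order was Jak1 (72.7 ± 3.73), Stat5b (66.3 ± 5.11), Il4ra (43.3 ± 5.98), Il6st (39.2 ± 0.699), Il2rg (38.6 ± 0.622), Stat5a (14.0 ± 1.29), Il7r (2.74 ± 1.41), Jak3 (2.00 ± 0.581), Il2ra (1.94 ± 0.359) and Il2rb (0.753 ± 0.186). There, Il4ra, Il6st and Il2rg could not be ordered, as neighbours overlapped, and neither could Il7r, Jak3 and Il2ra. Of tested protein-coding genes, 97.4% were below Jak1 in mean level per kb, 93.9% below Il2rg and 91.3% below Il6st, but 32.3% below Il2ra, 29.4% below Jak3, 28.2% below Il7r and 16.8% below Il2rb.

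**Figure D3:**
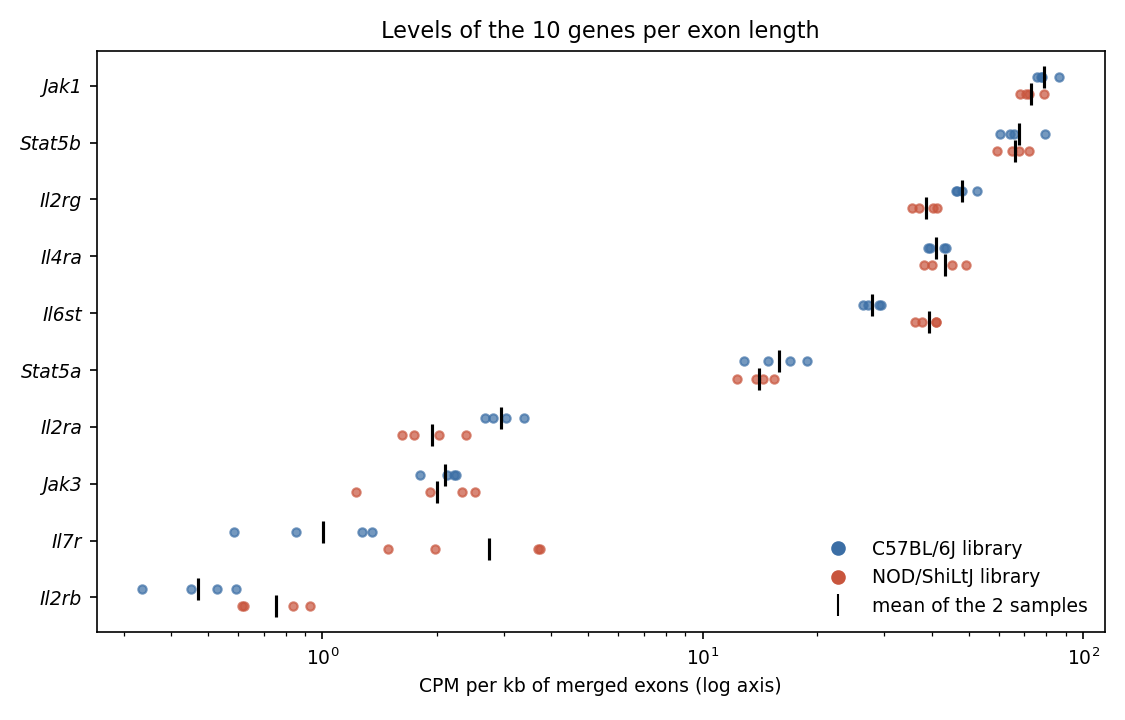
Level of each of the 10 genes as CPM per kb of merged exons (log axis) in each library, blue for C57BL/6J and red for NOD/ShiLtJ, with vertical ticks at the mean of the 2 samples. Jak1, Stat5b, Il2rg, Il4ra, Il6st and Stat5a form the upper set and Il2ra, Jak3, Il7r and Il2rb the lower, in both strains.

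Chains that assemble into 1 receptor were also set side by side as ratios per kb. Il2rg exceeded Il7r by 34.4 to 90.2 times in C57BL/6J libraries and by 9.62 to 27.8 times in NOD/ShiLtJ libraries. Il2ra exceeded Il2rb by 5.32 to 9.05 times and by 2.19 to 2.85 times. Neither pair of ranges overlapped, nor did that of Il2rg over Il2rb, at 81.1 to 157 and 40.0 to 65.5. These 3 ratios combine chains that stood in opposite directions above, so they hold no independent information. By contrast, the ranges of another pair of receptor chains, Il6st over Il6ra, overlapped (146 to 747 and 155 to 325). Stat5b over Stat5a (3.90 to 4.73 and 4.40 to 5.0) and Jak1 over Jak3 (34.6 to 41.8 and 28.7 to 57.8) overlapped too.

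Around the 10 genes, 150 further genes of the pathway were examined by role, and 128 of them passed the filter on low counts. Only 1 gene, 0.781% of the 128, passed the edgeR test against 3.68% of all genes. DESeq2 called 4 of these genes and limma-voom on the separate libraries 6, against 4.24% and 4.94% of the genes each tested, and 15 had p below 0.05 in edgeR before adjustment (13.1% of all genes). Libraries did not overlap in 29 of the 128 (17.0% of all genes), with NOD/ShiLtJ higher in 13 (8.20%) and lower in 16 (8.84%), and the median log2 fold change was -0.03. The gene that passed was the inhibitor Socs5, below.

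The cytokines themselves were barely transcribed in the sorted cells. Of 15 ligand genes 3 passed the filter on low counts. These were Osm (oncostatin M, 1.38 ± 0.394 and 1.25 ± 0.607 CPM), Cntf (ciliary neurotrophic factor, 0.493 ± 0.239 and 0.566 ± 0.326 CPM) and Il2 (0.479 ± 0.448 and 0.430 ± 0.0153 CPM; SD, n = 2). In edgeR 0 of the 3 passed the test before adjustment (13.1% of all genes) or after it (3.68%), and Il2 rested on 22 and 45 reads. Il7, which stromal cells supply in the thymus, had 9 and 10 reads, and Il6 and Il9 had 0 reads in all 8 libraries. A count of 0 allows up to 0.0625 CPM for C57BL/6J against 0.0292 CPM for NOD/ShiLtJ, taking 3 counts over the strain's libraries and counting error only.

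Other cytokine receptor chains were called in 0 of 21 tested genes in edgeR (3.68% of all genes), of 26 listed. Before adjustment 3 had p below 0.05 (13.1%). The highest in CPM were Ifngr1 (interferon gamma receptor, 481 ± 163 and 417 ± 3.96 CPM), Il21r (the private chain of the IL-21 receptor, which also pairs with Il2rg, 170.0 ± 19.7 and 152 ± 15.1 CPM) and Ifnar1 (type I interferon receptor, 139 ± 0.362 and 146 ± 4.21 CPM). The edgeR adjusted p of the 3 were 0.83, 0.81 and 0.922. The libraries of all 3 overlapped between strains. Of other partners of Il2rg, named outside the rule, Il15ra was at 2.70 ± 1.30 and 2.69 ± 0.783 CPM and Il9r at 1.38 ± 0.353 and 1.13 ± 0.268 CPM. Libraries were apart in 1 gene of the list, higher in NOD/ShiLtJ (8.20% of all genes), and in 0 lower (8.84%).

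The remaining JAKs and STATs included 0 of 7 that passed the edgeR test (3.68% of all genes), and 1 with an unadjusted p below 0.05 (13.1%). Jak2 was at 128 ± 10.7 and 143 ± 1.10 CPM, Stat3, the main transducer of gp130, at 144 ± 9.36 and 154 ± 14.6 CPM, and Stat6, which serves IL-4, at 161 ± 0.133 and 136 ± 6.49 CPM (SD, n = 2). Stat6 was 1 of 3 in this list whose NOD/ShiLtJ libraries all lay below the C57BL/6J ones, as in 8.84% of all genes, and 0 were higher. Its log2 fold change was -0.24 ± 0.16 (SE; edgeR adjusted p = 0.638).

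Socs5 rose in NOD/ShiLtJ and was the 1 call among 20 inhibitors tested, against 3.68% of all genes. It encodes a suppressor of cytokine signalling known for acting on IL-4 receptor signals, and lies on the plus strand at chr17:87107679-87137839 with no overlapping gene in the annotation. Its libraries gave 7.61, 6.71, 9.0 and 7.76 CPM for C57BL/6J against 19.6, 21.2, 18.6 and 20.3 CPM for NOD/ShiLtJ. The strains were well apart, at 7.83 ± 1.02 and 19.9 ± 0.790 CPM (SD, n = 2). The log2 fold change was 1.35 ± 0.25 (SE; interval 0.78 to 1.91; edgeR adjusted p = 0.0189), a 2.55-fold increase. The estimate without C57BL/6J sample 1 was 1.22 with an edgeR adjusted p of 0.185, and without C57BL/6J sample 2 it was 1.48 with 0.0707, so the call was lost with either left out. The estimate for Socs5 was 1.31 without NOD/ShiLtJ sample 1 and 1.38 without NOD/ShiLtJ sample 2.

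The inhibitors with the highest CPM overlapped between strains. The phosphatase Ptprc (CD45) was at 2019 ± 240 and 1937 ± 244 CPM, the ubiquitin ligase Cbl at 1227 ± 171 and 1202 ± 60.0 CPM, and the phosphatase Ptpn6 (SHP-1) at 210 ± 1.90 and 199 ± 4.98 CPM (SD, n = 2), with edgeR adjusted p of 0.946, 0.971 and 0.908. Socs1, the inhibitor known to restrain gamma chain signals in double-positive cells and named outside the rule for that role, was at 93.1 ± 14.9 and 91.8 ± 1.10 CPM, with a log2 fold change of -0.02 ± 0.17 (SE; edgeR adjusted p = 0.979). Socs3, the feedback inhibitor of gp130, named after its values were seen, was at 16.1 ± 4.54 and 8.45 ± 1.25 CPM, with all NOD/ShiLtJ libraries below the C57BL/6J ones (log2 fold change -0.93 ± 0.29; edgeR adjusted p = 0.158). It thus stood opposite to Il6st in direction, and neither passed the threshold.

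Cish, a feedback inhibitor induced by STAT5, was near the limit of detection. The libraries gave 0.480, 0.407, 0.567 and 0.685 CPM in C57BL/6J, on 25 reads in all, and 1.98, 1.2, 0.826 and 0.945 CPM in NOD/ShiLtJ, on 127 reads. The NOD/ShiLtJ libraries were all higher, and the log2 fold change of 1.24 ± 0.55 (SE; edgeR adjusted p = 0.383) did not pass the threshold. Its RefSeq window is shown in part because it holds the STAT motif 2 times, 2 bases apart, at chr9:107296659-107296678 on the plus strand, against 0.457% of all windows with 2 or more matches. Capitals mark the matches.
Cish: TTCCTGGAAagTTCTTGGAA
The choice of Cish for display was made after its values were seen.

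Of the adaptors and the PI3K branch 0 of 22 tested genes passed in edgeR (3.68% of all genes), and 4 had an unadjusted p below 0.05 (13.1%). The kinase Lck, which also serves the T cell receptor, was at 986 ± 48.9 and 1169 ± 164 CPM and the regulatory subunit Pik3r1 at 380 ± 6.98 and 442 ± 6.97 CPM (SD, n = 2; edgeR adjusted p = 0.696 and 0.688). Libraries were apart in 1 gene with NOD/ShiLtJ higher and in 3 with it lower, 4 of 22 against 17.0% of all genes, which is near that share.

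**Figure D4:**
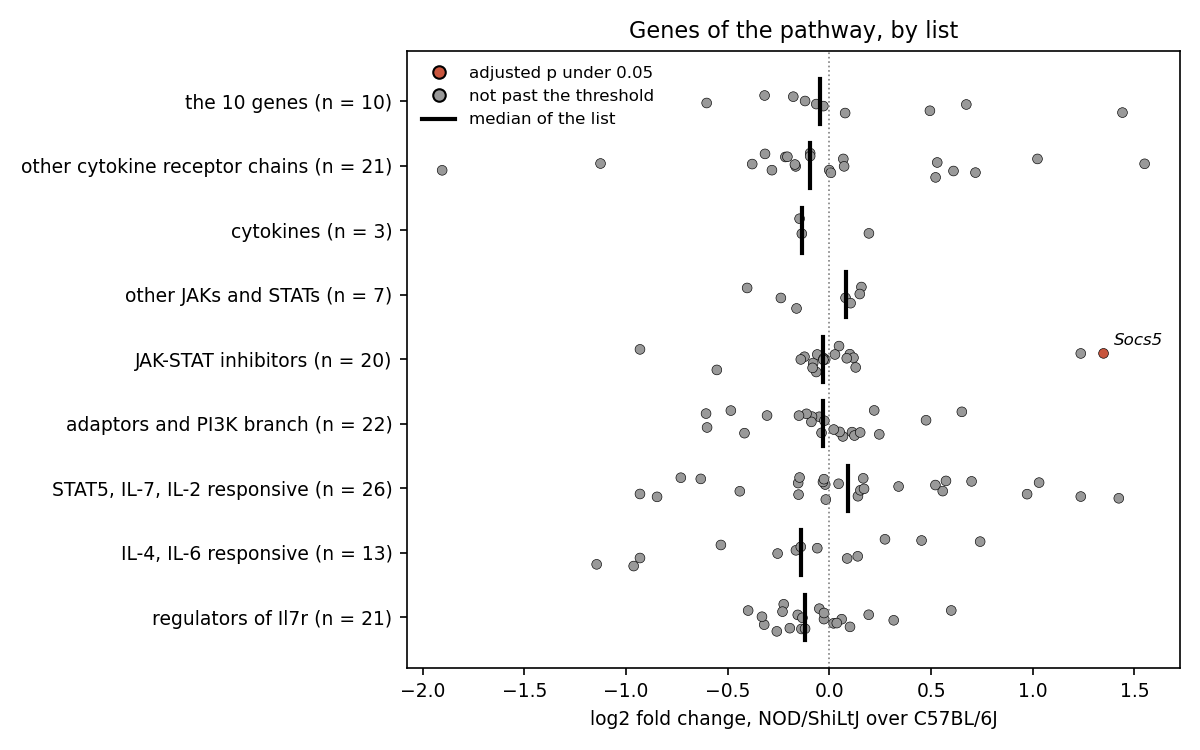
Log2 fold change of NOD/ShiLtJ over C57BL/6J for the tested genes of each list (points) with the median of the list (black bar); the vertical position within a list has no meaning and a gene in several lists is drawn in each. Socs5 is the only point past an adjusted p of 0.05 in edgeR, and list medians lie between -0.14 and 0.09.

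Genes known to respond to STAT5, IL-7 or IL-2 included 26 tested and 0 called in edgeR (3.68% of all genes). The median log2 fold change was 0.09, and 5 of the 26 had an unadjusted p below 0.05 (13.1%). NOD/ShiLtJ libraries were wholly higher in 8 of them and wholly lower in 4, against 8.20% and 8.84% of all genes. The list shares Foxp3, Ctla4, Tnfrsf4 and Ikzf4 with the regulatory T cell markers and Cd69 with the mature markers above. Its counts are therefore not independent of those lists, and the part of such cells in them was not tested. Ccnd3, the D-type cyclin of cycling thymocytes, was the highest of the list in CPM, with 826, 773, 845 and 787 CPM for C57BL/6J against 1213, 1127, 1278 and 1163 CPM for NOD/ShiLtJ. Its libraries did not overlap and its samples were close together (807 ± 22.7 and 1202 ± 32.9 CPM; log2 fold change 0.57 ± 0.17, SE; edgeR adjusted p = 0.119). The survival factor Mcl1 and the repressor Bcl6 overlapped, with log2 fold changes of 0.14 ± 0.17 and -0.02 ± 0.16 (SE; edgeR adjusted p = 0.843 and 0.98). Bcl2, the survival gene known to depend on IL-7 and named after its values were seen, was at 26.9 ± 5.42 and 43.7 ± 6.34 CPM with libraries apart (log2 fold change 0.70 ± 0.22, SE; edgeR adjusted p = 0.148). Pim1, a kinase gene induced by STAT5 and chosen likewise, lay in the opposite direction, at 48.8 ± 1.77 and 31.5 ± 15.9 CPM (edgeR adjusted p = 0.527).

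Genes known to respond to IL-4 or IL-6 were called in 0 of 13 tested in edgeR (3.68% of all genes), with a median of -0.14. Before adjustment 2 had p below 0.05 (13.1%). Among the highest in CPM were Cd8a (1563 ± 120 and 1660 ± 30.0 CPM) and Gata3 (118 ± 0.568 and 142 ± 9.30 CPM; SD, n = 2), with edgeR adjusted p of 0.91 and 0.568. No list member had NOD/ShiLtJ libraries wholly higher (8.20% of all genes) and 2 had them wholly lower (8.84%). These were Socs3, given above, and Icos, the inducible costimulator (10.5 ± 0.948 and 4.74 ± 0.238 CPM; log2 fold change -1.14 ± 0.30, SE; edgeR adjusted p = 0.0796).

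Transcription factors known to act on Il7r were called in 0 of 21 tested in edgeR (3.68% of all genes), with a median of -0.12. Before adjustment 0 had p below 0.05 (13.1%). The highest in CPM, Tcf7, Ets1 and Ikzf1, all had NOD/ShiLtJ libraries wholly below the C57BL/6J ones: Tcf7 at 4027 ± 126 and 3200.0 ± 199 CPM, Ets1 at 1447 ± 83.7 and 1320 ± 41.1 CPM and Ikzf1 at 776 ± 33.8 and 677 ± 24.9 CPM (SD, n = 2). Their edgeR adjusted p were 0.544, 0.855 and 0.747. Gfi1, a repressor of Il7r, and Foxo1, an activator, named outside the rule for these roles, were at 111 ± 12.8 and 101 ± 1.05 CPM and at 60.2 ± 1.42 and 48.2 ± 0.792 CPM (edgeR adjusted p = 0.843 and 0.494). In all, 2 of the 21 had libraries wholly higher in NOD/ShiLtJ (8.20% of all genes) and 4 wholly lower (8.84%).

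By profile over the 8 libraries, the genes most like Il7r among 7889 protein-coding genes were Pon2 (Pearson r = 0.984), Tmcc1 (0.981) and Uvrag (0.981), from log2(CPM + 1). Each was highest in sample 1 of NOD/ShiLtJ, as Il7r was, which follows from choosing them by likeness to Il7r. Pon2 gave 23.3 and 26.8 CPM in the C57BL/6J samples and 37.1 and 30.4 CPM in the NOD/ShiLtJ samples, and Tmcc1 75.0, 102, 221 and 143 CPM in the same order. The 8 points are 4 samples of 2 strains, so r is a description of these libraries. The edgeR adjusted p were 0.435 for Pon2, 0.0578 for Tmcc1 and 0.479 for Uvrag.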

How the data were processed

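Double-positive thymocytes were sorted, and total RNA was made into stranded low-input libraries and sequenced as 38 and 37 base read pairs, per the labels. The authors deposited raw counts per Ensembl gene, made with STAR 2.5.0a and HTSeq 0.6.1 on GRCm38, per the submitters' processing notes; the counting options are not given in the sources used here. GRCm38 is the C57BL/6J genome, and its effect on NOD/ShiLtJ reads was not tested. Reads outside genes, 40.0 to 59.1% of a library, were left out. GENCODE M21 gave symbols for 53360 of 53465 genes.

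Counts of libraries of 1 strain and B number were summed and compared with edgeR 4.0.16 (R 4.3.3; filterByExpr, TMM, robust quasi-likelihood F-test, two-sided, strain as the only term, Benjamini-Hochberg adjustment over 17291 genes, threshold 0.05). SE is the absolute log2 fold change over the root of F; intervals are 95%. The script was tested on simulated data. DESeq2 1.42.0, limma 3.58.1 and the settings of the closing section were alternatives. Named genes were the 10 genes, each list's called genes and its 3 most abundant, and the 3 most similar to Il7r (mean of 10 CPM or more); others are stated as chosen. A few genes that this rule selects are not reported here. The genes and lists were chosen with earlier results of these data known. The protein sequences were not used here.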

Additional observations from a re-analysis of the deposited data

How the results depend on the processing

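The 10 genes were refitted under 12 alternatives, giving 120 estimates: 106 kept their direction and side of the threshold, 8 passed it and 6 changed sign. Genes called over all genes numbered 637, against 1188 with no filter on low counts, 1535 with 8 libraries as separate samples and 256 to 1389 with 1 sample left out (256 without C57BL/6J sample 1, 359 without its sample 2, 1389 without NOD/ShiLtJ sample 2), a fit in which the lone sample is assumed to vary like the other strain. Of the 10 genes 0 were called, against 1 by DESeq2, 1 with no filter, 4 with separate libraries, 1 by limma-voom and 0 to 1 with a sample left out. Of the pathway genes 1 was called, where 3.68% of all genes were. DESeq2 called 4 of them (4.24% of all genes) and edgeR with no filter 7 (3.38%). Separate libraries gave 13 (10.1%), limma-voom 6 (4.94%) and protein-coding genes only 2 (4.23%). The replicate block on the B number called 513 genes, 0 of the 10 and 1 pathway gene; same-numbered samples did not deviate together (correlation -0.18). Some log2 fold changes that passed no threshold changed sign. Under total-count scaling Stat5b was 0.02, Cbl 0.0083 and Bcl6 0.03; under the replicate block Il2 was 0.08; in limma-voom Cntf was -0.06. With 1 sample left out the log2 fold changes ranged from -0.07 to 0.20 for Il4ra, -0.40 to 0.20 for Jak3, -0.14 to 0.07 for Stat5b, -0.53 to 0.18 for Ifngr1, -0.76 to 0.27 for Osm, -0.54 to 0.78 for Cntf, -0.89 to 1.39 for Il2, -0.0027 to 0.20 for Stat3, -0.19 to 0.06 for Ptprc, -0.17 to 0.11 for Cbl and -0.05 to 0.0091 for Bcl6. The cause was not tested. The median of all genes was 0.02 (TMM), 0.11 (DESeq2), 0.02 (RLE) and 0.06 (total count). Il2rb rested on 96 and 342 reads and Cish on 25 and 127, and the part of depth in their tests was not tested.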
